A study of Mus musculus with 32 samples.

Results

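The transcription factors of the NF-kB family and the IkB proteins that bind them were followed as mRNAs in macrophages with and without the nuclear receptor Nur77. The set was taken by gene name and holds 10 genes of the 25067 in the table. Of these, 5 encode the NF-kB subunits (Nfkb1, Nfkb2, Rel, Rela and Relb), 3 the classical inhibitors (Nfkbia, Nfkbib and Nfkbie) and 2 the atypical IkB proteins IkBzeta and BCL-3 (Nfkbiz and Bcl3). All 10 were among the 11186 genes tested. RNA-seq was measured in 32 libraries of bone marrow-derived macrophages (BMDMs), cells grown from the marrow of male C57Bl6/J mice of 6 to 12 weeks for 7 days in L929-conditioned medium. BMDM-WT came from wild-type littermates. BMDM-Nur77-KO came from whole-body knockout mice, in which CMV-Cre had removed loxP-flanked Nr4a1, the gene of Nur77, before the Cre allele was bred out. The labels give this genotype as cre. Each genotype was left untreated (0 h) or received 100 ng/ml LPS, a component of the bacterial cell wall, for 1, 5 or 18 h, with 4 replicates in each of the 8 groups. The replicates are wells of a plate, and the number of animals behind them is not given in the sources used here, so the p-values measure the spread between these libraries, which may be technical.

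NF-kB subunits work as dimers. The precursors p105 (from Nfkb1) and p100 (from Nfkb2) are processed to the DNA-binding subunits p50 and p52, whereas RelA, c-Rel and RelB carry the domains that activate transcription. In resting macrophages the IkB proteins keep the dimers in the cytoplasm. LPS, sensed by the receptor TLR4, activates the IkB kinase, IkB is degraded, and the dimers enter the nucleus, where the genes of their own inhibitors and of several subunits are among the known targets. IkBzeta and BCL-3 instead bind p50 or p52 homodimers in the nucleus and can raise or lower the transcription of single target genes. mRNA levels do not show where the proteins are or whether they are active.

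The libraries held 8742362 to 15780926 counts on the transcripts used, with a median of 11847140, and the lowest count of any of the 10 genes in any library was 50 (Bcl3). Levels are given below as CPM, counts scaled to the size of the library, and, where genes are compared with each other, as RPKM, which also divides by transcript length. The knockout libraries had less Nr4a1 than the wild-type ones at 0 h (4.46 to 7.03 CPM against 15.5 to 25.8) and 1 h (147 to 243 against 360 to 486), and it remained detectable in them. At 5 h it was at 0.108 to 0.685 against 0.793 to 1.06 CPM (edgeR adjusted p = 0.042), and at 18 h it was low in both genotypes, at 0 to 0.447 against 0.174 to 0.476 CPM (adjusted p = 0.68), so that Nr4a1 does not check the labels at 18 h. All 8 macrophage markers were expressed in every library, whereas the erythroid and mast cell markers had at most 3 counts in all 32. Neutrophil markers summed to 4.48 to 24.0 CPM per library and were higher in the knockout libraries at 1 h (19.8 to 24.0) than in the wild-type ones (10.9 to 14.9), with Ly6g, Elane and Prtn3 at or under 3 counts in all 32. B cell, T cell and fibroblast markers summed to at most 4.78, 0.862 and 1.87 CPM. The 4 dendritic cell markers summed to 13.4 to 21.7 CPM in BMDM-Nur77-KO at 18 h against 5.18 to 7.12 in BMDM-WT, with Xcr1 and Clec9a called higher and Flt3 at or under 3 counts in 29 libraries, while the macrophage markers summed to 11136 to 12633 against 14037 to 14691 CPM. The part of these shifts in the results at 1 h and 18 h was not tested. In bulk RNA, more cells of a kind and more RNA per cell cannot be told apart.

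A measurement that bears on several of the 10 genes is the relation of a library to GC content. For each library, the deviation of every gene from its group mean was regressed on the GC content of its transcript, which was known for 92.3% of the genes tested. The 3 lowest slopes belonged to BMDM-Nur77-KO replicate 1 at 5 h (-0.552 log2 per 10 GC points), BMDM-Nur77-KO replicate 4 at 18 h (-0.39) and BMDM-WT replicate 3 at 18 h (-0.274), against -0.136 to 0.299 in the other libraries. Bcl3 (62.6% GC), Relb (61.2%), Nfkbib (60.3%), Rela (59.4%) and Nfkb2 (59.3%) are GC-rich, above 93.7% or more of the genes tested, and Rel (42.5%) is GC-poor. In the BMDM-Nur77-KO library at 5 h, Relb was 1.06 and Nfkb2 0.87 log2 units below the mean of the other 3 libraries of the group, and Rel was 0.45 above. The BMDM-Nur77-KO library at 18 h had nearly the same deviations, namely Relb 1.08 and Nfkb2 0.72 below and Rel 0.49 above. Rela lay below the others in both libraries as well (-0.46 at 5 h and -0.31 at 18 h). The GC-rich genes Nfkbib and Bcl3 did not follow in both. Nfkbib was 0.62 above the others in the 5 h library and 0.06 below in the 18 h one, and Bcl3 was 0.25 below and 0.05 above. Results that rest on these libraries are given with and without them. GC-corrected counts, also given below, had a trend removed that was taken against the mean of all libraries. Differences between groups that go with GC content can thus be removed as well.

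**Figure D1:**
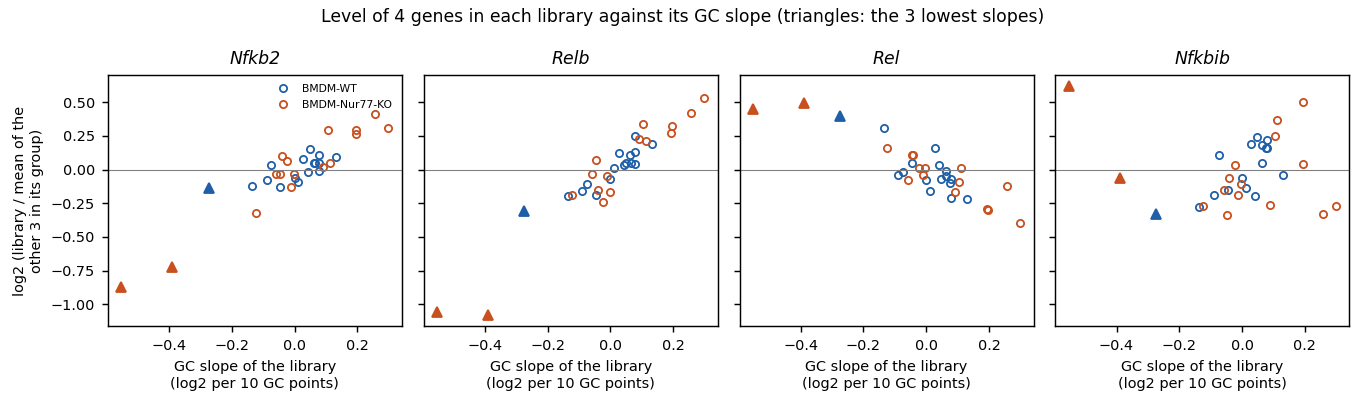
Each point is 1 of the 32 libraries, with the slope of its expression deviations on transcript GC content on the x axis (log2 per 10 GC points) and the log2 ratio of its CPM to the mean CPM of the other 3 libraries of its group on the y axis, for Nfkb2, Relb, Rel and Nfkbib. Triangles are the 3 libraries with the lowest slopes. Relb and Nfkb2 are low and Rel is high in the 2 BMDM-Nur77-KO triangles, with Relb at -1.06 and -1.08.

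The genes lie on 7 chromosomes of GRCm38 (mm10), at the positions given by RefSeq. Nfkb1 spans chromosome 3 from 135584655 to 135691969, Rel chromosome 11 from 23736847 to 23770969, Nfkbia chromosome 12 from 55489409 to 55492647, Nfkbiz chromosome 16 from 55811375 to 55838954 and Nfkbie chromosome 17 from 45555700 to 45563169. Rela (5637442 to 5648134) and Nfkb2 (46300994 to 46312400) are on chromosome 19, and Relb (19606217 to 19629438), Bcl3 (19808462 to 19822824) and Nfkbib (28758251 to 28766644) on chromosome 7. Exons of Nfkb2 overlap those of Psd and AC114539.1 on the other strand by up to 501 bases, those of Nfkbib overlap Ccer2 (314 bases) and Sirt2 (42 bases), and those of Bcl3 overlap Gm16175 (106 bases). The libraries were strand-specific and the counting used the default settings of HOMER, but the sources used here do not spell out how strand was treated, so reads from these stretches may include some of the other gene. No such overlap was found for the other 7 genes in the GENCODE annotation.

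RefSeq promoters (GRCm38.p6, 250 bases before to 50 after a start site) were at hand for 7 of the 10 genes: Bcl3, Nfkbib, Rel, Nfkbia, Nfkbie, Rela and Nfkb2, the last with 3 start sites, so 9 promoters in all. The kappaB consensus, the sequence that NF-kB dimers bind, was searched on both strands. It occurred in 7 of these 9 promoters, whereas 8.46% of all 32851 RefSeq promoters hold it. All 3 start sites of Nfkb2 are among the 7. Counted by gene, it occurred in 5 of the 7 genes, whereas 9.55% of 27025 genes hold it in a promoter. The windows of the 2 downstream starts of Nfkb2 overlap and share the match GGGACTTTCC. Rela and Nfkbib had no match in this window. The stretches shown are those of genes with a match before the start site, printed 5′ to 3′ on the gene's strand with the kappaB matches in capitals. They cover bases -150 to -1 for Rel (chr11:23770970-23771119, minus strand), Nfkbia (chr12:55492648-55492797, minus strand) and Nfkbie (chr17:45555550-45555699, plus strand), and bases -45 to -16 for the most upstream of the 3 start sites at hand of Nfkb2 (chr19:46304692-46304721, plus strand). All 30 bases of the Nfkb2 stretch lie in exons of the GENCODE annotation.
Rel: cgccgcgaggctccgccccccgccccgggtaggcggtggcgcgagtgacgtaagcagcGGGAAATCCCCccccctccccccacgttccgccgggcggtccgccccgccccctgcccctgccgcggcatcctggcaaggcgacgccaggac
Nfkbia: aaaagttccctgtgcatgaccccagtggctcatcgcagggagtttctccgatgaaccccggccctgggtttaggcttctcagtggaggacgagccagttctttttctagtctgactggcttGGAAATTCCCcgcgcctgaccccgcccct
Nfkbie: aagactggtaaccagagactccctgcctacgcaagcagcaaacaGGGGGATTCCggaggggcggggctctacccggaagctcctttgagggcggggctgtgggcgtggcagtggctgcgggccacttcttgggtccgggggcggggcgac
Nfkb2: cgtcacGGGAATTCCCCccctcggggggcc

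In Rel and in this stretch of Nfkb2, the 11 capitals hold 2 matches that overlap by all but 1 base. Nfkb2 has a further match, GGGGCTTTCC, at -11 to -2 of the same start site, and Bcl3 has GGGAAGTCCC at 2 to 11, past its start site. The AP-1 site TGANTCA occurred in 2 of the 9 promoters (Nfkbie and a downstream start of Nfkb2), against 7.81% of all promoters. The NBRE AAAGGTCA, which Nur77 binds as a monomer, occurred in none of the 9, against 1.51% of all promoters. A match in these windows does not show binding, and sites elsewhere were not searched.

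The first comparisons concern how the 10 genes responded to LPS in wild-type cells. All 10 rose within 1 h and were still higher at 5 h (edgeR's quasi-likelihood test, adjusted p under 0.05), and 9 were higher than at 0 h at 18 h. Among all genes tested, 10.1% were higher at 1 h, 30.1% at 5 h and 32.4% at 18 h. The time of the highest mean separated the genes. Nfkbia and Nfkbiz had it at 1 h, and the other 8 at 5 h.

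**Figure D2:**
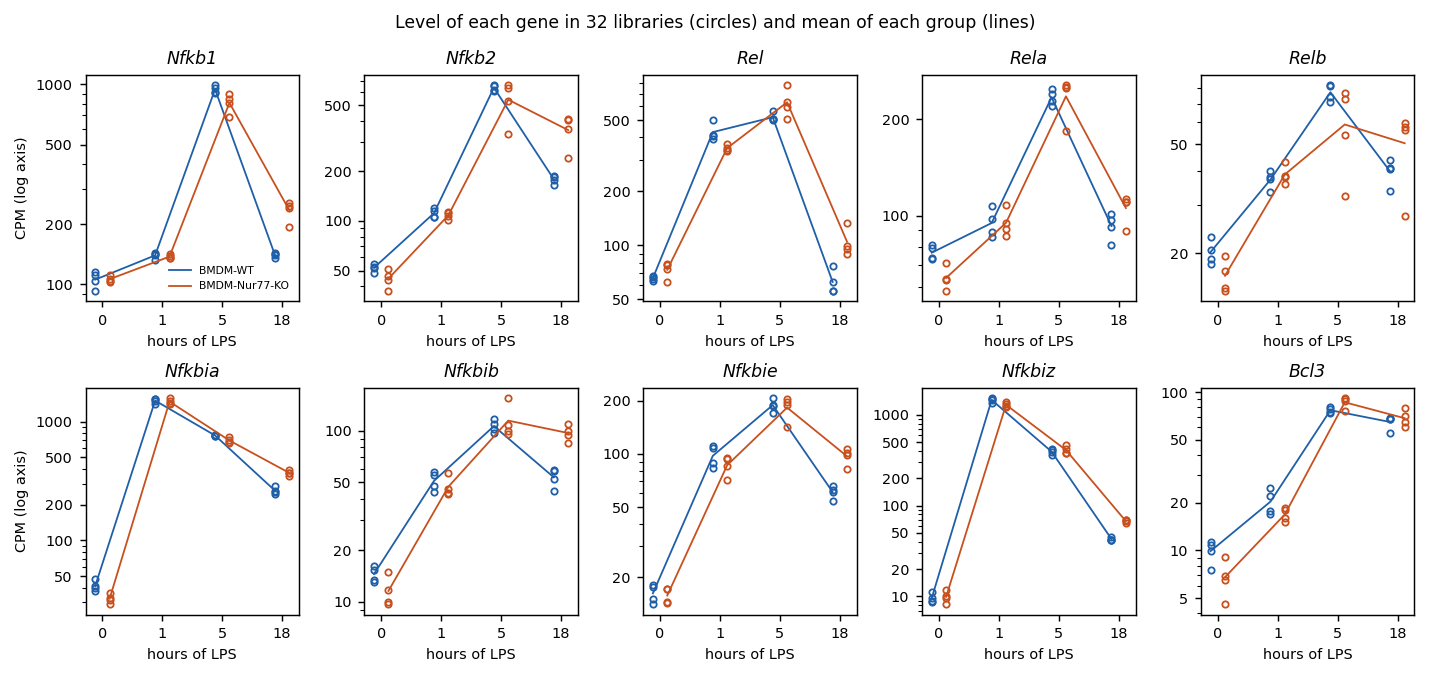
CPM on a log axis of each of the 10 genes in every library (circles) at 0, 1, 5 and 18 h of LPS, with lines through the group means of BMDM-WT (blue) and BMDM-Nur77-KO (orange). Nfkbia and Nfkbiz are highest at 1 h and the others at 5 h, and at 18 h the orange circles of Nfkb1, Nfkb2, Rel, Nfkbia, Nfkbib, Nfkbie and Nfkbiz lie above all blue ones.

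Nfkbiz, which encodes IkBzeta, a nuclear cofactor needed for secondary targets such as Il6, rose most. It had 8.67 to 11.3 CPM at 0 h and 1364 to 1525 at 1 h, 152 times the mean at 0 h, and was back to 41.7 to 45.5 CPM at 18 h. Nfkbia encodes IkBalpha, the inhibitor that is degraded and resynthesised most rapidly. Its level went from 37.4 to 46.8 CPM at 0 h to 1424 to 1564 at 1 h, 36.6 times the mean at 0 h. At 5 h Nfkbia was at 50.8% and Nfkbiz at 27.0% of the 1 h level.

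Among the subunits, Rel, the gene of c-Rel, moved first. It went from 63.4 to 67.5 CPM at 0 h to 393 to 502 at 1 h and stayed near that level at 5 h (498 to 562). By 18 h it was at 55.7 to 76.5 CPM, a range that overlaps that at 0 h (log2 fold change -0.07 ± 0.12 SE, adjusted p = 0.62). The value of 76.5 came from replicate 3, a library of low GC slope. The others (55.9, 62.1 and 55.7) lay below the range at 0 h. Without the 3 libraries of low GC slope the change was -0.18 (adjusted p = 0.063), and with GC-corrected counts -0.11 (adjusted p = 0.15). Nfkb1 and Nfkb2, the genes of the precursors, rose later. Nfkb1 was at 133 to 144 CPM at 1 h against 92.8 to 115 at 0 h, and at 909 to 995 at 5 h. Nfkb2 went from 48.6 to 55.1 CPM through 105 to 120 at 1 h to 615 to 667 at 5 h. Rela, whose product p65 is the main activating subunit of the canonical pathway, changed least of the subunits, from 73.1 to 80.9 CPM at 0 h to 220 to 248 at 5 h, 3.05 times the mean. Its rise at 1 h was small (0.31 ± 0.10, adjusted p = 0.026) and lost the call without replicate 1 or 2 at 0 h or replicate 1 or 2 at 1 h (adjusted p 0.058 to 0.11). At 18 h it was again close to the threshold (0.28 ± 0.10, adjusted p = 0.016, and 0.057 without replicate 1 at 18 h). Relb, the activating partner of p52 in the alternative pathway, went from 18.3 to 23.0 CPM to 70.9 to 82.2 at 5 h.

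The other inhibitors rose to 5 h as well. Nfkbie, the gene of IkBepsilon, went from 14.1 to 18.1 CPM through 82.9 to 111 at 1 h to 171 to 207, 11.7 times the mean at 0 h. Nfkbib, the gene of IkBbeta, went from 13.1 to 16.3 CPM to 43.9 to 57.4 at 1 h and 96.6 to 117 at 5 h. Bcl3 went from 7.51 to 11.3 CPM through 16.9 to 24.7 to 73.8 to 81.0, and was the gene that held its level longest, with 55.1 to 68.4 CPM at 18 h. From 5 h to 18 h, 9 of the 10 genes fell in BMDM-WT, where 33.4% of all genes tested fell. Bcl3 did not pass in that comparison (-0.25 ± 0.13, adjusted p = 0.087) and passed with DESeq2 (-0.30, adjusted p = 0.027).

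BMDM-Nur77-KO showed the same order of events. All 10 genes were higher than at 0 h after 1 h (6.9% of all genes tested were), 5 h (32.2%) and 18 h (33.9%), and the highest means fell at the same times as in BMDM-WT. At 1 h Nfkbiz reached 1227 to 1372 CPM and Nfkbia 1415 to 1583. From 5 h to 18 h, 8 of the 10 fell, where 34.2% of all genes did. The 2 that did not pass were Relb (59.0 CPM at 5 h and 50.4 at 18 h, adjusted p = 0.28) and Nfkbib (115 and 97.1 CPM, adjusted p = 0.12). Both comparisons include the 5 h library with the lowest GC slope, which had the lowest Relb and the highest Nfkbib of its group. Without the 3 libraries of low GC slope neither passed, with Relb at -0.22 (adjusted p = 0.055) and Nfkbib at -0.04 (adjusted p = 0.74), against -0.23 and -0.24 with all libraries. Without the 5 h library alone, Relb passed (-0.43, adjusted p = 0.019). Nfkbib passed without replicate 3 at 5 h (-0.31, adjusted p = 0.049), and both passed with GC-corrected counts (Relb -0.68, adjusted p = 2.1e-08, and Nfkbib -0.79, adjusted p = 0.00071). The fall of Bcl3 (-0.33 ± 0.13, adjusted p = 0.021) lost its call without replicate 2 or 3 at 5 h or replicate 1 or 2 at 18 h (adjusted p 0.050 to 0.076). Nfkb2 changed by -0.61 ± 0.14 (adjusted p = 0.00042), with overlapping groups (335 to 666 CPM at 5 h and 239 to 412 at 18 h). Its fall lost the call with only the libraries compared (-0.60, adjusted p = 0.058). Without the 3 libraries of low GC slope it passed (-0.64, adjusted p = 5.2e-08).

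The main question of the design is whether cells without Nur77 express these genes differently at each time. Before LPS, BMDM-Nur77-KO had less Nfkbia and Bcl3 mRNA and none of the 10 was higher, while 6.34% of all genes tested were lower. At 1 h no member was called, at 5 h only Nfkb1, which was lower, and at 18 h 7 of 10 were higher and none lower. In order of time, the median log2 fold change of the 10 genes was -0.24, -0.08, -0.02 and 0.66, beside -0.03, 0, 0.02 and -0.01 for all genes tested. At 18 h, 11.7% of all genes tested were higher.

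**Figure D3:**
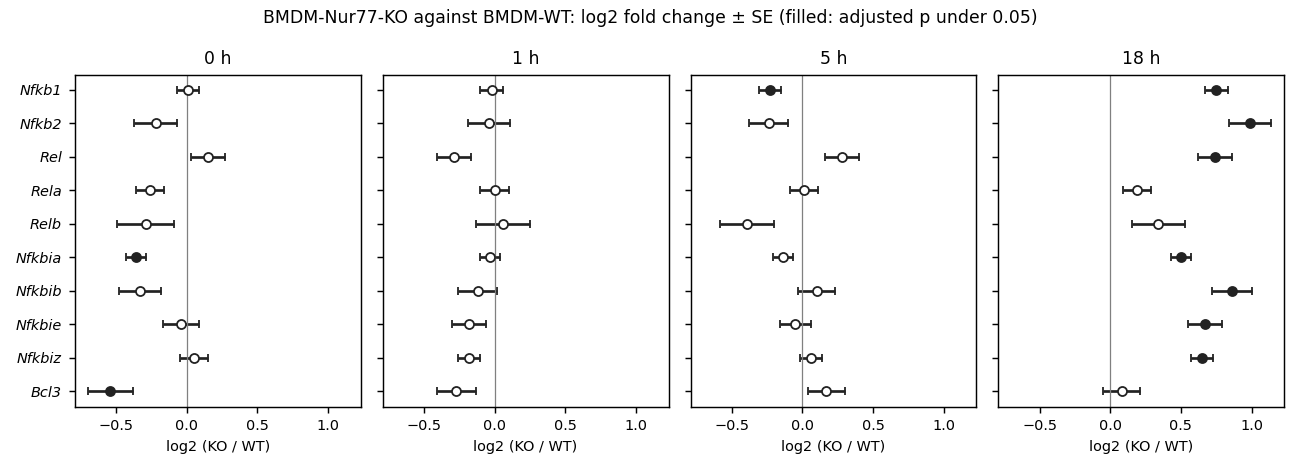
Log2 fold change of BMDM-Nur77-KO against BMDM-WT (x axis, bars are ± SE) for the 10 genes at 0, 1, 5 and 18 h of LPS, 4 libraries per group. Filled points have an adjusted p under 0.05 and are 2, 0, 1 and 7 in number from left to right, with all 10 points above 0 at 18 h.

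At 0 h, Nfkbia was at 28.9, 32.8, 31.2 and 35.7 CPM in BMDM-Nur77-KO and at 37.4, 39.7, 41.0 and 46.8 in BMDM-WT. The groups do not overlap, and the log2 fold change was -0.36 ± 0.07 (adjusted p = 0.00099). Bcl3 had 4.57, 6.92, 6.46 and 9.11 CPM against 7.51, 11.3, 9.95 and 10.8. Its groups overlap, and the difference of -0.54 ± 0.16 (adjusted p = 0.019) lost the call without BMDM-Nur77-KO replicate 1 (-0.41, adjusted p = 0.11) or 3 (adjusted p = 0.062) or BMDM-WT replicate 2 (adjusted p = 0.069) or 4 (adjusted p = 0.061). It was also lost with GC-corrected counts (-0.32, adjusted p = 0.28), under which Nfkbia alone stayed called (-0.27, adjusted p = 0.014). Rela was at 58.3 to 71.1 CPM in the knockout and 73.1 to 80.9 in the wild-type libraries, without overlap, and did not pass (-0.26 ± 0.10, adjusted p = 0.087). It passed, with Nfkb2 and Relb, when the 3 libraries with low GC slopes were left out of the fit, and none of these 3 genes passed with GC-corrected counts. In the fit without those libraries, 15.8% of all genes tested were lower. Without BMDM-Nur77-KO replicate 4, Rela (-0.31) and Nfkbib (-0.47) each passed with an adjusted p of 0.047.

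At 1 h, edgeR and DESeq2 called 0 of the 10 genes, 2 had an unadjusted p under 0.05, and 6.53% of all genes tested differed in either direction. The 2 were Rel, at 335 to 368 CPM in BMDM-Nur77-KO against 393 to 502 in BMDM-WT without overlap (-0.29 ± 0.12, adjusted p = 0.16), and Nfkbiz (-0.18 ± 0.08, adjusted p = 0.24). Both passed when only the libraries compared were fitted (adjusted p = 0.013 and 0.036). Rel also passed without the 3 libraries of low GC slope (-0.29, adjusted p = 0.0066), where 6.48% of all genes tested were lower. With GC-corrected counts Rel passed as well (-0.22, adjusted p = 0.024). For Nfkbia the interval of the difference at this time was narrow, from -0.16 to 0.11 log2 units (95%, from the SE).

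At 5 h, Nfkb1 was at 685, 808, 895 and 847 CPM in BMDM-Nur77-KO and at 909, 956, 995 and 920 in BMDM-WT. Every knockout library was below every wild-type library (-0.23 ± 0.08, adjusted p = 0.036), where 10.7% of all genes tested were lower. The lowest value was that of the library with the lowest GC slope, and without it the difference was -0.15 (adjusted p = 0.18). The call was also lost without BMDM-Nur77-KO replicate 2 (adjusted p = 0.069) or BMDM-WT replicate 2 (0.076) or 3 (0.098). Nfkbia was likewise without overlap, at 658 to 742 against 754 to 777 CPM, and did not pass (-0.14 ± 0.07, adjusted p = 0.12). Rel (507 to 786 CPM against 498 to 562) and Relb (32.5 to 76.6 against 70.9 to 82.2) had wide knockout groups, and the highest Rel and the lowest Relb came from the library with the lowest GC slope. In the fit of all libraries Rel was at 0.28 (adjusted p = 0.084) and Relb at -0.39 (adjusted p = 0.12). Without the 3 libraries of low GC slope they were at 0.15 (adjusted p = 0.20) and -0.19 (adjusted p = 0.17), and with GC-corrected counts at 0.05 (adjusted p = 0.57) and -0.23 (adjusted p = 0.040). Without BMDM-Nur77-KO replicate 4, which keeps the library of lowest slope, both passed (Rel 0.37, adjusted p = 0.019, and Relb -0.54, adjusted p = 0.033).

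At 18 h, the precursor genes Nfkb2 and Nfkb1 differed by 0.99 and 0.75 log2 units. Nfkb2 was at 358, 412, 410 and 239 CPM in BMDM-Nur77-KO and at 178, 184, 166 and 187 in BMDM-WT. It was 1.99 times as high (SE 0.15 on the log2 scale, adjusted p = 4.7e-06), and even the library with the low GC slope, at 239, was above all of BMDM-WT. Nfkb1 was at 247, 256, 242 and 194 CPM against 142, 135, 143 and 141. The groups do not overlap, and the ratio was 1.68 (SE 0.08, adjusted p = 1.7e-08).

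Rel was at 95.8, 89.7, 99.7 and 134 CPM in BMDM-Nur77-KO and at 55.9, 62.1, 76.5 and 55.7 in BMDM-WT. The highest value of each group came from a library with a low GC slope, and the groups do not overlap (1.67 times as high, SE 0.12, adjusted p = 2.5e-05). Rela had 110, 110, 113 and 89.8 CPM against 101, 92.2, 81.0 and 97.3, with overlapping groups (0.19 ± 0.10, 95% interval -0.01 to 0.38, adjusted p = 0.19). Relb had 56.5, 57.8, 59.8 and 27.4 CPM against 40.6, 40.8, 33.7 and 43.7. The first 3 values lie above all of BMDM-WT and the last below it, so that the difference was 0.34 ± 0.19 (adjusted p = 0.21). Without that library it was 0.55 (adjusted p = 0.015), and without all 3 libraries of low GC slope it was 0.48 (adjusted p = 0.00085).

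The 3 classical inhibitors were all higher in BMDM-Nur77-KO at 18 h. Nfkbia was at 367, 373, 389 and 352 CPM against 259, 257, 248 and 286 (1.41 times as high, SE 0.07, adjusted p = 1.8e-06). Nfkbib was at 84.6, 99.0, 110 and 94.2 CPM against 58.0, 58.7, 44.7 and 52.4 (1.82 times, SE 0.14, adjusted p = 1.5e-05). Nfkbie was at 101, 107, 98.3 and 81.8 CPM against 60.8, 66.1, 54.0 and 62.5 (1.59 times, SE 0.12, adjusted p = 6e-05). In none of the 3 do the groups overlap. The share of all genes tested without overlap between the genotypes was not determined.

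The atypical IkB genes differed from each other. Nfkbiz was at 67.7, 64.0, 68.7 and 69.5 CPM in BMDM-Nur77-KO and at 42.2, 41.7, 45.5 and 42.2 in BMDM-WT (1.57 times as high, SE 0.08, adjusted p = 6e-07). These groups do not overlap. Bcl3 was at 64.4, 59.9, 78.9 and 70.1 CPM against 68.4, 67.6, 55.1 and 67.5. Its groups overlap (0.08 ± 0.13, 95% interval -0.17 to 0.33, adjusted p = 0.70).

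The 7 calls at 18 h did not rest on 1 library. With each of the 8 libraries left out in turn, 7 or 8 genes were called, and without the 3 libraries of low GC slope 8 were, with log2 fold changes of 1.10 for Nfkb2, 0.83 for Nfkb1, 0.80 for Nfkbib, 0.72 for Rel, 0.69 for Nfkbie, 0.67 for Nfkbiz and 0.49 for Nfkbia. In the fit without these 3 libraries, 14.8% of all genes tested were higher. With GC-corrected counts 9 were called, Rela (0.30, adjusted p = 0.0019) and Relb (0.40, adjusted p = 0.00048) among them. Bcl3 was called in none of these fits. For the fits with GC-corrected counts or with single libraries left out, the share of all genes called is not at hand.

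Whether the response to LPS itself differed between the genotypes was tested as the interaction of genotype and time against 0 h, with edgeR. At 1 h, no member was called by edgeR or DESeq2, 2 had an unadjusted p under 0.05 (Nfkbia and Rel), and 0.0715% of all genes tested were called. At 5 h Bcl3 was called (0.71 ± 0.20, adjusted p = 0.047), where 1.74% of all genes tested had a larger response in BMDM-Nur77-KO. Bcl3 lost this call without any 1 of 13 of the 16 libraries (adjusted p 0.051 to 0.13), the others being BMDM-Nur77-KO replicate 4 and BMDM-WT replicate 1 at 0 h and BMDM-Nur77-KO replicate 1 at 5 h. At 18 h, 9 members had a larger response in BMDM-Nur77-KO and none a smaller one, where 5.36% of all genes tested had a larger one. The interactions and the comparisons at single times use the same libraries and are not independent.

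The interaction at 18 h was 1.21 ± 0.21 log2 units for Nfkb2, 1.19 ± 0.21 for Nfkbib, 0.85 ± 0.10 for Nfkbia and 0.73 ± 0.11 for Nfkb1. For Bcl3 it was 0.62 ± 0.20 (adjusted p = 0.047), with a fold over 0 h of 10.1 in BMDM-Nur77-KO and 6.55 in BMDM-WT and overlapping levels at 18 h. The level at 0 h enters these values. The difference between genotypes at 0 h and at 18 h was -0.54 and 0.08 for Bcl3, -0.36 and 0.50 for Nfkbia, and -0.26 and 0.19 for Rela. Rela had 0.45 ± 0.14 (adjusted p = 0.040). Bcl3 lost its call without any 1 of 12 of the 16 libraries (adjusted p 0.054 to 0.13), the exceptions being BMDM-Nur77-KO replicate 4 and BMDM-WT replicate 1 at 0 h and BMDM-Nur77-KO replicates 1 and 2 at 18 h. The call of Bcl3 was also lost without the 3 libraries of low GC slope (0.55, adjusted p = 0.055) and with GC-corrected counts (0.51, adjusted p = 0.15). Rela lost its call without any 1 of 10 libraries (adjusted p 0.064 to 0.095), the exceptions being BMDM-Nur77-KO replicate 4 of either time, replicates 1 and 2 of BMDM-WT at 0 h and replicates 1 and 4 of BMDM-WT at 18 h. Rel had 0.59 ± 0.17 (adjusted p = 0.024) and lost its call without BMDM-Nur77-KO replicate 4 at 0 h or at 18 h or BMDM-WT replicate 1 or 4 at 18 h (adjusted p 0.058 to 0.065). Relb (0.63 ± 0.28, adjusted p = 0.17) passed without the 18 h library of low GC slope (0.84, adjusted p = 0.015).

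The level at 18 h was also set against that at 5 h within each genotype. In BMDM-WT, Nfkb1 at 18 h was at 14.8% of its 5 h mean, and in BMDM-Nur77-KO at 29.1%. For Nfkb2 the shares were 27.9% and 65.4%, for Nfkbib 50.1% and 84.7%, for Relb 51.4% and 85.4%, for Nfkbia 34.2% and 53.3%, and for Nfkbie 32.2% and 52.9%. Nfkbiz (10.9% and 16.5%), Rel (12.1% and 16.7%) and Rela (39.7% and 44.8%) were closer, and Bcl3 (84.2% and 79.3%) ran the other way. Without the 3 libraries of low GC slope, Nfkb2 stayed at 28.5% and 64.4%, and Nfkbib went to 52.9% and 96.9%.

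This change from 5 h to 18 h was tested as a further interaction, added after the values had been seen. It was called for 6 of the 10 genes, all with a smaller fall in BMDM-Nur77-KO, where 7.49% of all genes tested were called in this direction. They were Nfkb2 (1.23 ± 0.20), Nfkb1 (0.97 ± 0.11), Nfkbib (0.76 ± 0.19), Nfkbie (0.72 ± 0.16), Nfkbia (0.64 ± 0.10) and Nfkbiz (0.59 ± 0.12). Rel (0.47 ± 0.17) and Relb (0.73 ± 0.27) each had an adjusted p of 0.066, and Relb passed with DESeq2 (adjusted p = 0.048). Without the 3 libraries of low GC slope both passed (0.57, adjusted p = 0.0011, and 0.67, adjusted p = 0.00088). Single libraries did this as well, BMDM-Nur77-KO replicate 1 at 5 h (0.59), replicate 2 at 18 h (0.53) and BMDM-WT replicate 3 at 18 h (0.58) for Rel, and BMDM-Nur77-KO replicates 3 (0.85) and 4 (0.88) at 5 h and 4 at 18 h (0.94) for Relb. Nfkbib did not pass with GC-corrected counts (0.54, adjusted p = 0.19). Bcl3 had -0.09 ± 0.18, with a 95% interval from -0.44 to 0.27.

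**Figure D4:**
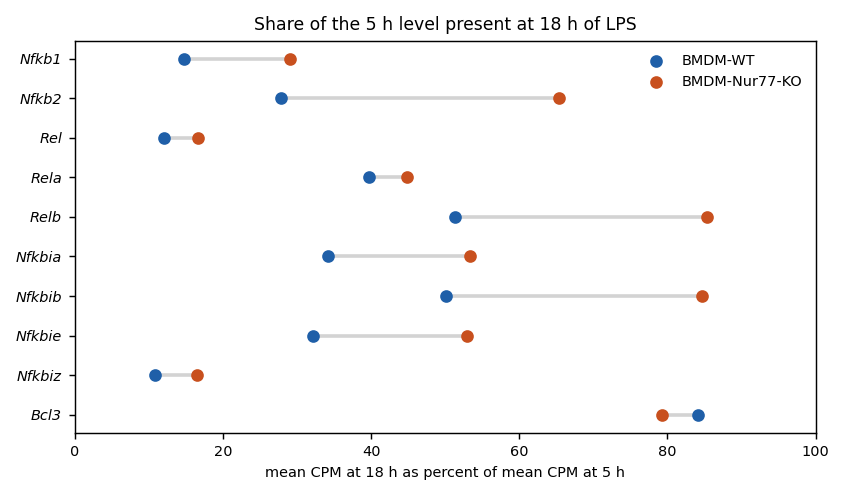
Mean CPM at 18 h as a percentage of the mean CPM at 5 h (x axis) for each of the 10 genes, BMDM-WT in blue and BMDM-Nur77-KO in orange, 4 libraries per mean. For 9 genes the orange point is to the right, with the widest gap for Nfkb2 (27.9% and 65.4%), and for Bcl3 it is to the left.

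Levels per length place the genes beside each other. In BMDM-WT at 0 h the highest were Rela (28.3 ± 1.41 RPKM, SD, n = 4), Nfkbia (26.1 ± 2.53) and Nfkb1 (25.7 ± 2.35), whose ranges overlap, followed by Nfkb2 (16.5), Nfkbib (11.7), Relb (9.19) and Rel (8.80), the last 2 overlapping, Nfkbie (6.67) and Bcl3 (5.34), which overlap too, and Nfkbiz (2.34). At 1 h Nfkbia (957 RPKM) and Nfkbiz (354) stood apart from Rel (57.4) and all others. At 5 h the order was Nfkbia (486), Nfkb1 (230) and Nfkb2 (204), each apart from the next, with Relb last (35.1). At 18 h, Nfkbia (166) and Nfkb2 (56.9) led in BMDM-WT, and Nfkbiz (10.4) and Rel (8.38), which overlap, were last. In BMDM-Nur77-KO at 18 h the order began with Nfkbia (235), Nfkb2 (113), Nfkbib (78.1) and Nfkb1 (57.1), with the ranges of Nfkb2 and Nfkbib overlapping. The length of Nfkbib depends on which of its transcripts is taken, 1243 bases for the one used and 2061 for the other, which held 93.6% as many counts.

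The composition of the subunit mRNA changed with time. In BMDM-WT at 0 h, Rela made up 31.9% and Nfkb1 29.0% of the summed RPKM of the 5 subunits, at 1 h Rel had the largest share (32.1%), at 5 h Nfkb1 (36.8%) and at 18 h Nfkb2 (37.5%). In BMDM-Nur77-KO the share of Nfkb2 at 18 h was 45.9% and that of Rela 15.8%, against 22.6% for Rela in BMDM-WT. The summed RPKM of Nfkbia, Nfkbib and Nfkbie divided by that of the subunits was 0.503 ± 0.0297 before LPS in BMDM-WT, and after 1, 5 and 18 h it was 5.81 ± 0.279, 1.04 ± 0.0295 and 1.55 ± 0.0340 (SD, n = 4). In BMDM-Nur77-KO it was 0.446 ± 0.0275, 6.05 ± 0.166, 1.09 ± 0.220 and 1.46 ± 0.215. The ranges of the ratio overlap between the genotypes at all 4 times. At 18 h both sums were higher in BMDM-Nur77-KO, 246 against 152 RPKM for the subunits and 353 against 234 for the inhibitors. The 2 highest ratios among the 8 knockout libraries of the late times, 1.42 and 1.78, belong to the libraries of low GC slope. Without them the ratio at 18 h was 1.32 to 1.38 in BMDM-Nur77-KO, below all 4 BMDM-WT libraries (1.51 to 1.59), and the ranges at 5 h still overlapped. These sums are of mRNA and say nothing of protein.

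**Figure D5:**
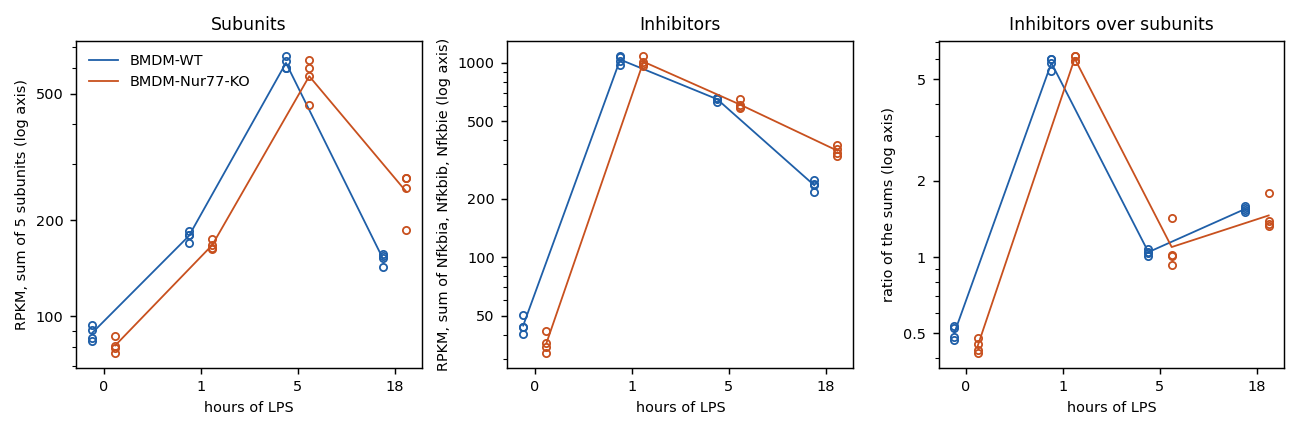
Summed RPKM of the 5 subunit genes, summed RPKM of Nfkbia, Nfkbib and Nfkbie, and the ratio of the second to the first, each on a log axis, in every library (circles) at 0, 1, 5 and 18 h of LPS, with lines through the group means. The inhibitor sum peaks at 1 h and the subunit sum at 5 h, so the mean ratio in BMDM-WT goes from 0.503 to 5.81 and then to 1.04. Most of the inhibitor sum at 1 h is Nfkbia (957 of 1038 RPKM in BMDM-WT), whereas Nfkbib and Nfkbie are highest at 5 h.

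Genes with the most similar pattern were found by Pearson's r over the 8 group means of log2 CPM, as a description across groups that share libraries. Nfkb2 was closest to Irak2 (r = 0.995), an adaptor kinase of TLR signalling, and Arid5a (0.992), an RNA-binding protein that stabilises cytokine mRNAs. Nfkbia was closest to Tnf (0.994) and Pim1 (0.992), Nfkbiz to Tnfaip3 (0.988), the gene of the inhibitor A20, and Zc3h12c (0.987), and Nfkbib to Ptgs2os2 (0.996) and Il12b (0.990). The closest genes were Tasor2 (0.996) and Ptpmt1 (0.995) for Nfkb1, Mapk6 (0.996) and Cited2 (0.992) for Rel, Tmem243 (0.993) and Ezr (0.991) for Rela, Ehd1 (0.989) and Exoc3l4 (0.985) for Relb, Rbm7 (0.992) and Psd (0.991) for Nfkbie, and Trex1 (0.994) and Gbp5 (0.992) for Bcl3. Exons of Psd overlap those of Nfkb2 on the other strand, so the counts of Psd may include reads of Nfkb2. Within the set, the highest values were those of Nfkb1 with Rela (0.982), Relb with Nfkbib (0.970) and Nfkbia with Nfkbiz (0.967).

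Of 18 kinases and adaptors that activate NF-kB, 5 were called higher and 2 lower in the knockout at 18 h, with a median log2 fold change of 0.11, beside 11.7% and 9.93% of all genes tested. Malt1, a paracaspase of the CARD-BCL10-MALT1 complex, was higher at all 4 times and most at 18 h (1.24, adjusted p = 4.3e-08). The kinase gene Map3k8 was lower (-0.29, adjusted p = 0.016), and the ubiquitin ligase gene Traf3 (0.31, adjusted p = 0.028) and the kinase gene Tbk1 (0.27, adjusted p = 0.046) were higher. Of the IkB kinase subunits, Ikbkb was higher (0.25, adjusted p = 0.014), and Chuk (-0.05) and Ikbkg (-0.05) did not pass. Map3k14, the kinase NIK of the alternative pathway, was lower at 0 h (-0.78, adjusted p = 7.7e-06) and at 1 h (-0.34, adjusted p = 0.044). It did not pass at 18 h (-0.20, adjusted p = 0.17). At 0 h, 2 of the 18 were higher and 1 lower, at 1 h 1 and 1, and at 5 h 2 and 2. The shares of all genes tested that were higher and lower were 6.33% and 6.34% before LPS, then 3.48% and 3.06% after 1 h, and finally 13.7% and 10.7% after 5 h, which also stand beside the counts of the next lists.

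Of 16 other inhibitors and modulators, 7 were higher and none lower at 18 h (median 0.34). Those with the largest differences were Traf1 (0.92, adjusted p = 1.5e-05), Tnfaip3 (0.81, adjusted p = 3.1e-12), Tnip3 (0.70, adjusted p = 0.0020) and Tnip1 (0.61, adjusted p = 3.7e-07), the last 2 encoding partners of A20. At the earlier times 1 was higher and 1 lower at 0 h, 1 was higher at 1 h and none lower, and 1 was higher and 4 lower at 5 h.

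Among 18 known targets of NF-kB, 15 were higher and none lower at 18 h (median 1.43). The largest differences were those of Il6 (3.66, adjusted p = 2.2e-11), Ptx3 (3.34, adjusted p = 0.00054), Ptgs2 (2.95, adjusted p = 1.8e-13) and Il1a (2.21, adjusted p = 8e-14), which encode a cytokine, a pentraxin, the prostaglandin synthase COX-2 and an alarmin. Ptx3 was low in both genotypes at 18 h, with means of 0.0446 CPM in BMDM-WT and 0.543 in BMDM-Nur77-KO. Its ratio thus rests on few counts. Il6 had means of 4.11 and 52.1 CPM. At 0 h, 2 were higher and 4 lower, at 1 h 2 and 5, and at 5 h 6 and 5. Without the 3 libraries of low GC slope, the counts at 18 h were 4 higher and 2 lower for the activators, 8 and 0 for the modulators and 15 and 0 for the targets. In that fit 14.8% of all genes tested were higher and 11.6% lower. These lists were written with earlier results of these data known, and their counts are a description.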

How the data were processed

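RNA-seq of 32 BMDM libraries (8 groups, 4 replicates each) was analysed from 1 table. The authors aligned paired reads of 150 bases to mm10 with HISAT2 2.1.0, kept alignments with a mapping quality over 15 and used HOMER to count tags on RefSeq transcripts. These expected counts were deposited by the authors without normalization. The submitters' processing notes also name CASAVA 1.8.2. Each mate adds 0.5, so 28.6% of the values are not whole. The 42361 transcripts were named through RefSeq (42198) or GENCODE (70), and 93 unnamed ones, with 0.233% to 1.373% of the tags, were left out. Each of the 25067 genes was represented by its transcript of highest mean count, rounded to whole numbers. Isoforms share reads, so this choice can change a gene's level and length.

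Counts were scaled with TMM, and the 11186 genes whose RPKM averaged over 1 in some group were tested with edgeR 4.0.16 (R 4.3.3) by its quasi-likelihood test in a model of 8 group means, with Benjamini-Hochberg adjustment and a call at an adjusted p under 0.05. Alternatives were DESeq2 1.42.0, its size factors, other filters, only the libraries compared, a replicate block, summed transcripts, a limit of 0.58 on the log2 fold change, and each library left out. After seeing the data, the 3 libraries of lowest GC slope were left out, and counts were corrected for a lowess trend (span 0.3) on GC. The trend was that of each library's deviation from the mean of all libraries, not of its group. The correction can therefore also remove differences between groups that go with GC content. The members, lists and comparisons were chosen with earlier results of these data known. All 10 members are reported at every time, with each library's value where a member was called between genotypes; of the other pathway genes, up to 4 per list are named by the largest called difference at 18 h. Map3k14, Ikbkb, Chuk and Ikbkg were added after their values were seen. No 2 libraries of a group agreed within sampling noise.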

Additional observations from a re-analysis of the deposited data

Results flagged for a closer look

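In groups of 4 libraries, the gap of the highest or lowest library to the next was set against the range of the group (Dixon's test at the 95% level). Chance flags about 1 in 20 groups, and 6 of 80 were flagged. They were Rel in BMDM-WT at 5 h (replicate 3, 562 CPM), Rela in BMDM-Nur77-KO at 5 h (replicate 1, 184 CPM) and at 18 h (replicate 4, 89.8 CPM), Relb in BMDM-Nur77-KO at 18 h (replicate 4, 27.4 CPM), and Nfkbiz (45.5 CPM) and Bcl3 (55.1 CPM) in replicate 3 of BMDM-WT at 18 h. Of these 6, 5 came from the 3 libraries with the lowest GC slopes. Rela, Relb and Bcl3, all GC-rich, were low there, and Nfkbiz (50.1% GC) was high. The part of GC content in these values was not tested beyond the fits without the libraries and with corrected counts.

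Responses that differed between BMDM-WT and BMDM-Nur77-KO by the interaction term of edgeR form the other set. Against 0 h they were, on the log2 scale, Bcl3 at 5 h (0.71), and at 18 h Nfkb2 (1.21), Nfkbib (1.19), Nfkbia (0.85), Nfkb1 (0.73), Nfkbie (0.71), Bcl3 (0.62), Nfkbiz (0.60), Rel (0.59) and Rela (0.45). From 5 h to 18 h they were Nfkb2 (1.23), Nfkb1 (0.97), Nfkbib (0.76), Nfkbie (0.72), Nfkbia (0.64) and Nfkbiz (0.59). Their adjusted p-values ranged from 2.2e-07 to 0.047. Of the 9 called at 18 h, Rela and Bcl3 had levels at 18 h that overlapped between the genotypes.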

How the results depend on the processing

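No log2 fold change of a member that was called in either of 2 fits had opposite signs in them. Of the members' values under alternatives other than leaving out single libraries, 1386 kept their side of the threshold, 23 lost the call and 31 gained it. Counts of members called between genotypes at 18 h (7) ranged from 6 to 9 over all alternatives, and those of the interaction at 18 h (9) from 7 to 9. At 0 h (2 called) the count was 5 without the 3 libraries of low GC slope, where 15.8% of all genes tested were lower, 1 with GC-corrected counts and 0 with the limit on the fold. At 1 h (0 called) it was 2 (Rel and Nfkbiz) with only the libraries compared and 1 (Rel) under each of the GC alternatives. At 5 h (1 called) it was 0 without a filter, with only the libraries compared, without the 3 libraries and with the limit on the fold, and 3 (Rela, Relb and Bcl3) with GC-corrected counts. The interaction at 1 h (0) gave 1 with only the libraries compared and 2 without the 3 libraries, and that at 5 h (1) gave 0 with filterByExpr, no filter, summed transcripts, only the libraries compared, the replicate block or GC-corrected counts and 2 without the 3 libraries. The cause was not tested. Shares of all genes called are at hand only for the main fit and, between genotypes, for the fit without the 3 libraries.

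With each library left out, the counts ranged from 1 to 4 at 0 h, stayed at 0 at 1 h, and ranged from 0 to 3 at 5 h and from 7 to 8 at 18 h between genotypes, from 9 to 10 at 1 h and from 8 to 9 at 18 h for LPS in BMDM-WT, from 7 to 9 for 18 h against 5 h in BMDM-Nur77-KO, from 0 to 1 and from 7 to 9 for the interactions at 5 and 18 h, and from 6 to 7 for the late interaction. No pairing by replicate number was seen, since deviations of same-numbered libraries had a median r of -0.023 and 2 of 32 libraries were closest to their own number. Differences between single libraries, such as their GC slopes, enter these deviations, so a pairing is not excluded. With the numbers as a block, the interaction at 18 h called 7 members, without Rela (adjusted p = 0.059) and Bcl3 (0.056), and that at 5 h 0 (Bcl3, adjusted p = 0.060). Size factors moved the median of all genes by at most 0.091 log2 units. Depth was not limiting for the members, the lowest count being 50.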
